A study of Mus musculus with 3 samples.

Results

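Arg1-low monocytes and macrophages are cells of the perilesional brain that carried transcripts of blood-derived monocytes but little or no message of Arg1, the arginase that marks repair-type macrophages. They were picked cell by cell from raw transcript counts (unique molecular identifiers, UMIs). A cell was a member when Plac8, Ccr2, Ms4a4c, Ly6c2 and F10 summed to at least 5 UMIs, Arg1 stayed below 3, P2ry12, Tmem119, Siglech and Gpr34 summed to at most 5, and Cd3d, Cd3e, Cd3g and Cd79a were at 0. The rule found 128 of 33688 kept cells, namely 7 from sham, 78 from TBI+PBS and 43 from TBI+IL-25. Within them, cells with at least 20 UMIs of H2-Aa, H2-Ab1 and H2-Eb1 together are called MHC class II-high here, and the rest MHC class II-low.

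The 3 libraries came from the left perilesional brain of male C57BL/6 mice aged 6 to 8 weeks, with 1 library per group. Sham mice had no brain injury, TBI+PBS mice had a traumatic brain injury (TBI) with saline as vehicle, and TBI+IL-25 mice had the injury and interleukin-25 at 1 µg per mouse, first inside 30 minutes and then once a day for 3 days. The labels name no engineered allele, and the number of animals behind a library is not given there. Tissue was digested with enzymes and dead cells were removed before capture, so the cells are those that survived dissociation.

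Classical monocytes leave the blood through the chemokine receptor CCR2, enter injured tissue, and there either keep an inflammatory state, mature into macrophages, or take on features of antigen-presenting cells. MHC class II molecules show peptides to CD4 T cells. Their alpha and beta chains are made by H2-Aa, H2-Ab1 and H2-Eb1, the invariant chain Cd74 escorts them to the endosome, H2-DM (H2-DMa, H2-DMb1, H2-DMb2) loads the peptide, and the coactivator CIITA turns the whole set on from shared promoter boxes. The Y box of these promoters is an inverted CCAAT element that is bound by NF-Y.

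The promoters of 2 genes of the split and of H2-DMb1, which the rule did not use, are shown because class II genes set the split that the first comparison rests on, and H2-DMb1 followed it. The sequences are 250 bases before to 50 bases after the gene start, 5′ to 3′ on the gene's strand, from RefSeq on GRCm38.p6, with TGATTGG in capitals. H2-Aa lies on the minus strand at chr17:34287774-34288073, H2-Eb1 on the plus strand at chr17:34305617-34305916 and H2-DMb1 on the plus strand at chr17:34152941-34153240.
H2-Aa: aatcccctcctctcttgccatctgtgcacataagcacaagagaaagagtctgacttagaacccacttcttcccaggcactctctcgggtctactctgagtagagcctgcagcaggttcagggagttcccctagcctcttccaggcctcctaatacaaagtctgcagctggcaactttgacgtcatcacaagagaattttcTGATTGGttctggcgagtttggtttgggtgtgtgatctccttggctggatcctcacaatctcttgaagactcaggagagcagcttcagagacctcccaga
H2-Eb1: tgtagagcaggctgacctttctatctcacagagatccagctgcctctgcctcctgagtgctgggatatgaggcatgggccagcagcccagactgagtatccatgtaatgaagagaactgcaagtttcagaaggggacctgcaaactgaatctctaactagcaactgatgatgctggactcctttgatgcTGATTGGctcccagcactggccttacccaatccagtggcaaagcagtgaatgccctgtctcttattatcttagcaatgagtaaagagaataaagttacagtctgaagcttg
H2-DMb1: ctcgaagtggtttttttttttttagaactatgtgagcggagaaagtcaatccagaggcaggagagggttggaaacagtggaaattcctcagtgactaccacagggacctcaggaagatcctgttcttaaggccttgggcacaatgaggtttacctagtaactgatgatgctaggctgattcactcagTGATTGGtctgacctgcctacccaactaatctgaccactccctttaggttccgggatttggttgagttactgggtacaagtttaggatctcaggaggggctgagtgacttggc
The capitals begin 50, 61 and 63 bases before the gene start. ATTGG, or CCAAT on the other strand, was in 12289 of 32851 promoter windows (37.4%) and in 8 of the 11 class II pathway genes that had a window, of 16 sought. The longer TGATTGG or CCAATCA, which contains the shorter motif and was searched after the sequences had been seen, was in 2568 windows (7.82%) and in 7 of those 11 genes. Of 12 classical monocyte genes with a window, 6 held ATTGG and 1, S100a6, held TGATTGG. H2-DMa had ATTGG only, and H2-Ab1 and Ciita had no entry.

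In sham, 0.0785% of cells passed the rule (7 of 8921, 95% Clopper-Pearson interval 0.0316 to 0.162). In TBI+PBS the share was 0.736% (78 of 10600, 0.582 to 0.918), and in TBI+IL-25 it was 0.304% (43 of 14167, 0.22 to 0.409). The intervals of the 3 libraries do not overlap. The TBI+PBS share was 9.38 times that of sham (conditional binomial interval 4.34 to 24.1), and the TBI+IL-25 share was 3.87 times that of sham (1.73 to 10.2). TBI+IL-25 stood at 0.412 times TBI+PBS (0.277 to 0.606). All intervals cover counting error only. With 1 library per group there was no test between groups, and library and treatment cannot be told apart.

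The order of the injured libraries held under every other rule tried, but its size did not. Median depth of the members was 5805 UMIs for sham, 9738 for TBI+PBS and 4397 for TBI+IL-25. A minimum in raw UMIs passes deep cells more easily, whereas the upper limits on Arg1, microglia and lymphocyte genes pass shallow cells more easily. With each cell thinned to 2000 UMIs, 59 of 9038 cells from TBI+PBS passed, against 50 of 11246 from TBI+IL-25, a ratio of 0.681 (0.458 to 1.01). Plac8 moved the other way. Its level in the members was 1219 CPM (counts per 1000000 UMIs) for sham, 1149 for TBI+PBS and 5331 for TBI+IL-25. Of the TBI+IL-25 members, 17 of 43 would not have reached 5 UMIs without Plac8, against 11 of 78 in TBI+PBS. These cells could hold the other monocyte genes as well. Without Plac8 in the rule the ratio was 0.29 (0.177 to 0.463). When cells with any microglia-rule UMI were left out it was 0.602 (0.369 to 0.976), with 41 of the TBI+PBS cells and 33 of the TBI+IL-25 cells left.

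Of the other rule genes, Ccr2 stood at 1031 CPM for sham, 766 for TBI+PBS and 475 for TBI+IL-25. Ms4a4c stood at 516, 426 and 373 CPM, Ly6c2 at 422, 195 and 405 CPM, and F10, the gene of coagulation factor X, at 23.4, 129 and 97.9 CPM. These values describe the selection. At its edges, 10 members sat at exactly 5 UMIs of the monocyte genes and 10 further cells were outside at 4, while 8 members held 2 UMIs of Arg1 and 6 cells fell outside at 3. Arg1 was at 0 in 110 of the 128 members.

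The label was set against its markers. All 4 marker genes Plac8, Ccr2, Ms4a4c and Ly6c2 were found in each library, and at least 2 of them were present in 38 of 41 class II-high and 30 of 37 class II-low cells of TBI+PBS and in 18 of 19 and 20 of 24 of TBI+IL-25. Since the rule used them, this is no independent check, and genes outside the rule are set against microglia further on. Some members carried another cell type's program. In TBI+IL-25, 4 class II-low cells held 5 or 6 of 11 neutrophil markers with 218 to 1038 UMIs of them each. In TBI+PBS, 3 class II-low cells held 7 or 8 of 8 natural killer cell markers, 2 held all 6 endothelial markers, and 1 class II-high cell held all 5 oligodendrocyte markers. These 10 cells are called the cells of other programs below. By the same limit of 5 genes, 5 class II-high and 7 class II-low cells of TBI+PBS held astrocyte markers, as did 2 and 1 of TBI+IL-25 and 1 of sham, with up to all 8 genes and 420 UMIs in a cell. At least 5 conventional dendritic cell markers were in 2 class II-high cells of TBI+PBS, 1 class II-low cell of TBI+IL-25 and 2 sham members. With these lists taken in, 17 TBI+PBS members and 8 from TBI+IL-25 fell away, and 61 and 35 were left. A Scrublet score over 0.2 was given to 8 members in TBI+PBS, 2 in TBI+IL-25 and 0 in sham. Between 24 and 39 barcodes were shared by any 2 libraries, and 2 TBI+PBS members had a barcode that also occurs in sham. Astrocyte markers stood at 1683 and 2783 CPM in class II-high and class II-low cells of TBI+PBS and at 874 and 272 CPM in TBI+IL-25.

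The class II split divided the members nearly evenly. Class II-high cells were 3 of 7 in sham (42.9%, 9.9 to 81.6), 41 of 78 in TBI+PBS (52.6%, 40.9 to 64) and 19 of 43 in TBI+IL-25 (44.2%, 29.1 to 60.1), and these intervals overlap. Across all 128 cells, 49 had no UMI of the 3 class II genes. Only 6 cells lay between 10 and 19 UMIs and 4 between 20 and 29, with the highest value below the limit at 19 and the lowest inside at 21. Class II-high cells had a median of 350 class II UMIs for sham, 220 for TBI+PBS and 108 for TBI+IL-25. Among the Arg1-positive cells, which met the same rule except for Arg1 of 3 UMIs or more, class II-high cells were far fewer, at 8 of 115 in TBI+PBS (6.96%, 3.05 to 13.2) and 3 of 33 in TBI+IL-25 (9.09%, 1.92 to 24.3). At 2000 UMIs per cell and a limit of 4, 33.9% of the 59 TBI+PBS cells that passed on thinned counts were class II-high. For the 50 such cells of TBI+IL-25 it was 44%, so the order of the injured libraries turned. The set of cells changed along with the depth, and their parts in this turn were not tested.

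**Figure D1:**
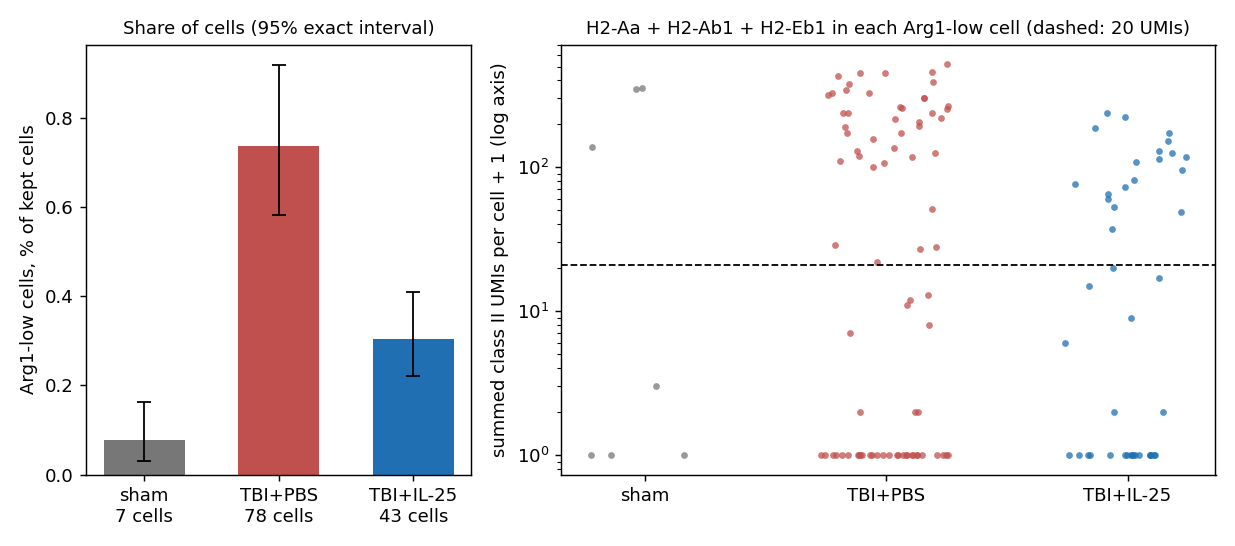
Left, Arg1-low cells as a percentage of kept cells in each library, with the 95% exact interval as error bar: 0.0785% for sham, 0.736% for TBI+PBS and 0.304% for TBI+IL-25. Right, UMIs of H2-Aa, H2-Ab1 and H2-Eb1 in each Arg1-low cell plus 1 (log axis, points spread sideways for sight only). Cells gather at 0 UMIs and, in sham and TBI+PBS, mostly above 100, with few near the dashed limit of 20. Class II-high cells of TBI+IL-25 run from 36 to 236 UMIs.

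The plot of single cells shows few cells around the limit, with 10 of 128 cells between 10 and 29 UMIs. In TBI+IL-25, class II-low cells reached 19 UMIs and class II-high cells began at 36, with 3 cells from 10 to 19 and 0 from 20 to 29. In TBI+PBS the arms ended at 12 and began at 21 UMIs, with 3 and 4 cells in those ranges. Class II-high cells were deeper than class II-low cells in both injured libraries, with a median of 10951 against 8417 UMIs in TBI+PBS and 4892 against 3900 in TBI+IL-25. By share of a cell's own UMIs (at least 0.2%), 41 TBI+PBS cells and 22 TBI+IL-25 cells were class II-high.

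Class II-high and class II-low cells differed in more than class II. Class II-high cells carried the invariant chain and the peptide loader gene H2-DMb1 at many times the level of class II-low cells, and Ciita and H2-DMa at a higher level. Class II-low cells had higher levels of 9 of 18 classical monocyte genes and of Slpi and Cxcl3, with Chil3, Slpi, Hp, Vcan and Cxcl3 at or near 0 on the class II-high side. These directions were the same in both injured libraries. UMIs were summed per library and arm and tested with edgeR's quasi-likelihood test over 3683 genes, leaving out the 17 rule genes. The 4 sums of 2 libraries leave 1 residual degree of freedom, and sham, with 3 and 4 cells, stayed out. The arms were split by expression, so a gene that moves with class II message had to differ. The test takes a gene's spread in part from all genes, so a small p-value does not require that the 2 libraries are alike. At an adjusted p under 0.05, 66 genes were higher in class II-high cells (1.79% of those tested) and 73 lower (1.98%), or 3.77% in either direction.

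These counts depend on the method, and so do the calls of some leading genes. With DESeq2 (median-of-ratios) size factors in edgeR, the counts were 9 higher and 19 lower, and the DESeq2 test itself gave 5 and 12. Without the 10 cells of other programs they were 23 and 29, and without the astrocyte and dendritic marker cells too they were 10 and 14, with 124 of 124 genes still tested keeping their direction. Without cells that held 2 or more genes of any neutrophil, lymphoid, mast or dendritic cell list, which left 37 cells of TBI+PBS with 32 of TBI+IL-25, 1 gene was called on each side, Cd74 (edgeR adjusted p = 0.00266) and Chil3 (edgeR adjusted p = 0.0179).

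Cd74, the invariant chain, stood at 20986 CPM in class II-high and 536 CPM in class II-low cells of TBI+PBS, at 11615 and 724 CPM in TBI+IL-25, and at 37741 and 1910 CPM in sham. The arms were apart in each library, and the log2 ratio fitted over the injured libraries was 4.81 ± 0.231 (SE, edgeR adjusted p = 1.01e-87). It passed in 12 of 12 other settings. Astrocytes, which should lack the gene, held 26.5 CPM of it in TBI+PBS, 11.2 CPM in TBI+IL-25 and 1.08 CPM in sham.

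H2-DMb1, a chain of the peptide loader, stood at 874 and 50.9 CPM in TBI+PBS, 950 and 136 CPM in TBI+IL-25 and 1141 and 178 CPM in sham. Its log2 ratio was 3.63 ± 0.311 (SE, edgeR adjusted p = 3.6e-28), and it passed in 11 of 12 settings. H2-DMa stood at 608 and 95.9 CPM in TBI+PBS and at 557 and 217 CPM in TBI+IL-25 (log2 ratio 2.20, edgeR adjusted p = 2.19e-10). H2-DMb2 rests on 89 and 2 UMIs for TBI+PBS and on 5 and 0 for TBI+IL-25. Reads of H2-DMb1 and H2-DMb2 can be split by the counting, since the copies are alike.

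Ciita, the coactivator, was at 160 CPM in class II-high and 5.99 CPM in class II-low cells of TBI+PBS, and at 76.8 and 36.2 CPM in TBI+IL-25. It was higher in class II-high cells of both libraries (log2 ratio 3.30, edgeR adjusted p = 1.74e-06), but passed in 6 of 11 settings, and in TBI+IL-25 alone the log2 ratio was 1.08. Ifi30, a lysosomal thiol reductase that opens antigens for class II loading, was at 1925 and 851 CPM and at 1190 and 869 CPM (log2 ratio 0.97, edgeR adjusted p = 0.000841). In all, 6 of the 8 tested class II pathway genes outside the rule were higher and 0 lower, with a median log2 ratio of 2.75 against 0.03 over all genes. Of the MHC class I pathway, 1 of 12 was higher, the immunoproteasome subunit Psmb8 (0.81, edgeR adjusted p = 0.0435, passing in 2 of 12 settings). Its median was 0.44.

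Other genes were higher together with class II. Klrd1, which encodes the lectin receptor CD94, stood at 420 and 44.9 CPM in TBI+PBS and at 432 and 136 CPM in TBI+IL-25 (log2 ratio 2.63, edgeR adjusted p = 4.7e-11, passing in 10 of 11 settings), and all 15 of its UMIs in class II-low cells of TBI+PBS lay in the 3 cells with natural killer markers. Ifitm1, an interferon-induced membrane protein, stood at 3290 and 216 CPM and at 4128 and 1739 CPM (log2 ratio 2.65, edgeR adjusted p = 2.44e-27), but passed in 7 of 12. The lectin Clec10a was at 88.7 and 15 CPM and at 115 and 27.2 CPM, and Cd72 at 86.5 and 12 CPM and at 106 and 0 CPM. Both passed in 6 of 11 settings. Il1r2, the decoy receptor of interleukin-1, stood at 266 and 5.99 CPM and at 134 and 63.4 CPM, passing in 7 of 12. Gpr171, Actn1 and Bcl2a1d completed the 12 leading genes, with log2 ratios of 3.31, 2.95 and 2.41. They passed in 9 of 12, 5 of 11 and 9 of 12 settings. The integrin Itgax and the common gamma chain Il2rg were also higher, at 1.60 and 1.46, but each passed in 2 or 3 of 12 settings.

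Dendritic cells also express class II, Itgax and Clec10a. At least 2 of 11 conventional dendritic cell markers were found in 20 of 41 class II-high and 5 of 37 class II-low cells of TBI+PBS, and in 4 of 19 and 2 of 24 of TBI+IL-25. The summed list stood at 344 and 126 CPM in TBI+PBS and at 470 and 199 CPM in TBI+IL-25, with 1 of its 11 genes at 0 in class II-high cells of TBI+PBS, against 2 in those of TBI+IL-25. In sham, 2 of 3 class II-high and 2 of 4 class II-low cells held at least 2 of them. Its part in the result was not tested beyond the value without such cells given above.

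On the other side, Chil3 (Ym1), a secreted lectin of inflammatory monocytes, had 4 UMIs in class II-high and 306 in class II-low cells of TBI+PBS, which is 8.65 and 917 CPM. In TBI+IL-25 it had 3 and 93 UMIs, or 28.8 and 842 CPM. Class II-high cells were nearly free of it (log2 ratio -5.92 ± 0.412, SE, edgeR adjusted p = 1.94e-42), and it passed in 12 of 12 settings. Slpi, a secreted protease inhibitor, had 1 UMI against 187 in TBI+PBS, with 0 against 63 in TBI+IL-25 (edgeR adjusted p = 4.95e-36). The chemokine Cxcl3 had 0 UMIs in class II-high cells of both libraries, against 54 and 16, which makes it at least 24.9-fold and 5.03-fold lower at a floor of 3 counts per library.

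Thbs1, thrombospondin-1, stood at 404 CPM in class II-high and 2939 CPM in class II-low cells of TBI+PBS and at 432 and 3097 CPM in TBI+IL-25. The values of the libraries nearly coincided, and the log2 ratio was -2.73 ± 0.229 (SE, edgeR adjusted p = 2.75e-29). Hp, haptoglobin, stood at 13 and 359 CPM and at 0 and 435 CPM, and the proteoglycan Vcan at 13 and 153 CPM and at 0 and 308 CPM. Lyz2, lysozyme, stood at 3132 and 9640 CPM and at 3341 and 6891 CPM (log2 ratio -1.22, edgeR adjusted p = 9.46e-08). Fn1, fibronectin, stood at 394 and 1435 CPM and at 67.2 and 426 CPM. Of the 18 classical monocyte genes, 9 were lower in class II-high cells and 0 higher, with a median of -1.19. The rule gene Ly6c2 ran the same way at 28.1 and 425 CPM in TBI+PBS and 163 and 634 CPM in TBI+IL-25, as did F10 at 45.4 and 246 and at 9.6 and 181 CPM.

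Among cytokines and chemokines, 4 of 15 tested were lower in class II-high cells and 1 higher. Ccl2, the ligand of CCR2, was at 123 and 662 CPM in TBI+PBS and at 57.6 and 226 CPM in TBI+IL-25 (log2 ratio -2.18, edgeR adjusted p = 7.78e-08). The neutrophil attractant Cxcl2 was at 900 and 2813 CPM and at 566 and 3522 CPM (-1.97, edgeR adjusted p = 1.6e-16). Cxcl3 and the IL-6 family cytokine Osm were the others, and Cxcl16 was the gene that was higher (292 and 180 CPM, 182 and 9.05 CPM). Osm passed in 4 of 12 settings and Cxcl16 in 3. The lysosomal proteases Ctsb, Ctsd and Ctsl were lower by 0.94, 1.45 and 1.31 on the log2 scale, 3 of 13 lysosome genes. Ctsb passed in 3, Ctsd in 8 and Ctsl in 5 of 12 settings, and without cells holding 2 or more genes of another list they were at -0.67, -0.73 and -0.71 (edgeR adjusted p = 0.431, 0.435 and 0.542). Of 16 interferon-stimulated genes 0 passed in edgeR, and their median was -0.11. Across all 3683 genes 488 had an unadjusted p under 0.05, and DESeq2 called 17 genes in either direction.

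Some lower genes come from the cells of other programs. S100a8 stood at 6293 CPM in class II-low cells of TBI+IL-25, where 4 cells held the neutrophil markers. Neutrophil markers summed to 18382 CPM there, and to 368 CPM in class II-low cells of TBI+PBS. Lcn2, at 0 in class II-high cells of both libraries against 33 and 26 UMIs, is also a neutrophil gene. Pglyrp1, Mgst1, Rasgrp2 and Stmn1 filled the list of 12, with log2 ratios of -3.86, -2.76, -3.06 and -2.52.

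**Figure D2:**
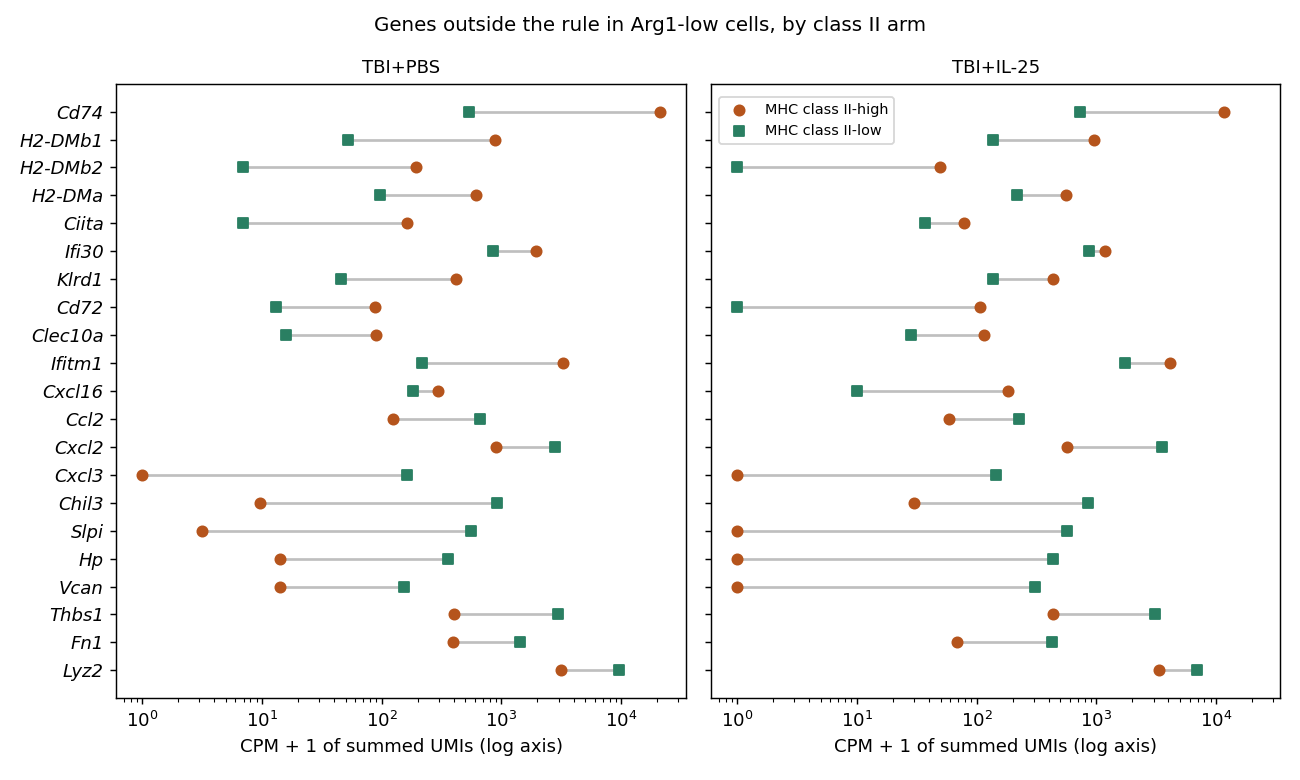
Level of 21 genes outside the rule in MHC class II-high (circles) and class II-low (squares) Arg1-low cells of TBI+PBS and TBI+IL-25, as CPM of summed UMIs plus 1 on a log axis. Genes from Cd74 to Cxcl16 are higher in class II-high cells and genes from Ccl2 to Lyz2 higher in class II-low cells, in both libraries. A symbol at the left edge is 0 UMIs.

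The plot of both arms shows the same sign for all 21 genes in TBI+PBS and TBI+IL-25. In TBI+PBS the widest gaps as drawn are those of Cd74 on the class II-high side and of Slpi, Cxcl3 and Chil3 on the class II-low side. Sham members, though 7 in all, can be set beside them. Lyz2 stood at 2926 CPM in class II-high and 23634 CPM in class II-low cells of sham, Chil3 had 0 and 3 UMIs and Hp 0 and 9 UMIs. Thbs1 had 0 UMIs in all 7 sham members, which allows up to 70.3 CPM at 3 counts, against 1467 CPM in TBI+PBS members and 1803 CPM in those of TBI+IL-25.

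Next to the Arg1-positive cells of the same libraries (115 in TBI+PBS, 33 in TBI+IL-25, 0 in sham), Arg1-low cells had lower levels of 13 of 16 hypoxia and glycolysis genes, 9 of 13 lysosome genes and 5 of 9 oxidative stress genes. They had higher levels of 5 of 9 class II pathway genes and 5 of 12 adhesion genes. Over 6089 genes, edgeR placed 225 higher in Arg1-low cells (3.7%) and 306 lower (5.03%), or 8.72% in either direction, with the median gene at -0.06. When class II-low cells alone were compared, the counts were 32 and 62. Without cells holding 2 or more genes of another list they were 27 and 44, and with both limits edgeR gave 0 and 5 (366 genes had an unadjusted p under 0.05). DESeq2 on all members gave 25 and 35. Without the cells of other programs and the astrocyte and dendritic marker cells, which also took 11 Arg1-positive cells from TBI+PBS and 3 from TBI+IL-25, edgeR gave 80 and 77, and 469 of 469 called genes still tested kept their direction. Border-associated macrophage markers, 2 of which (Pf4 and Mrc1) other macrophages also express, stood at 2059 CPM in Arg1-positive cells of TBI+PBS and 462 CPM in TBI+IL-25, against 134 and 521 CPM in class II-high and class II-low members of TBI+PBS and 202 and 36.2 CPM in TBI+IL-25. Astrocyte genes were higher in Arg1-low cells for 3 of 8, with Aqp4 and Gja1 among them. The part of the border-associated list in the result was not tested.

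Spp1, osteopontin, was at 384 CPM in Arg1-low and 6705 CPM in Arg1-positive cells of TBI+PBS, and at 46.6 and 2513 CPM in TBI+IL-25. It had the lowest ratio among the named genes (log2 ratio -4.65 ± 0.212, SE, edgeR adjusted p = 2.01e-54). In class II-low cells alone it was -4.74 (edgeR adjusted p = 4.86e-05). The platelet-factor chemokine Pf4 was at 118 and 1746 CPM and at 37.3 and 269 CPM (-3.82, edgeR adjusted p = 9.63e-33). Ccl2 was at 349 and 2302 CPM and at 144 and 1433 CPM (-3.04, edgeR adjusted p = 2.83e-33).

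Ctsl, cathepsin L, was at 355 and 1603 CPM in TBI+PBS and at 275 and 1387 CPM in TBI+IL-25 (log2 ratio -2.35 ± 0.193, SE, edgeR adjusted p = 8.88e-24). The scavenger receptor Msr1 was at 96.7 and 384 CPM and at 55.9 and 391 CPM (-2.34, edgeR adjusted p = 5.64e-17). Both passed in 13 of 13 other settings. Ctsd was at 1035 and 3153 CPM and at 410 and 1731 CPM, and 9 of 13 lysosome genes were lower and 0 higher, with a median of -0.75.

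Hmox1, which breaks down haem, was at 775 CPM in Arg1-low and 2144 CPM in Arg1-positive cells of TBI+PBS and at 154 and 592 CPM in TBI+IL-25 (log2 ratio -1.74, edgeR adjusted p = 5.69e-14). Fth1, ferritin heavy chain, was at 17163 and 30130 CPM and at 12516 and 33401 CPM (-1.22, edgeR adjusted p = 2.83e-11). Of 9 oxidative stress genes 5 were lower and 0 higher. Of 16 hypoxia and glycolysis genes 13 were lower and 0 higher, with a median of -0.99, among them Ldha (798 and 1089 CPM, 424 and 983 CPM), Pgk1 and the growth factor Vegfa, at log2 ratios of -0.88, -1.06 and -1.11. Ldha was also lower in class II-low cells alone (-1.35, edgeR adjusted p = 0.018).

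Of the cytokines and chemokines, 10 of 17 were lower in Arg1-low cells and 1 higher. Il1b was at 1530 and 2042 CPM in TBI+PBS and at 1612 and 2391 CPM in TBI+IL-25 (log2 ratio -0.59, edgeR adjusted p = 0.00913, passing in 6 of 13 settings), and Tnf at 38.9 and 77.8 CPM and at 69.9 and 126 CPM (-1.05, edgeR adjusted p = 0.0121). Cxcl10 was at 90.4 and 416 CPM in TBI+PBS but at 69.9 and 50.4 CPM in TBI+IL-25, so its fitted ratio of -1.80 (edgeR adjusted p = 1.99e-08) came from TBI+PBS. In TBI+IL-25 alone the log2 ratio was 0.48. Ccl5, the exception in the list, had 137 UMIs in Arg1-low and 0 in Arg1-positive cells of TBI+PBS, and 71 of the 137 lay in the class II-low arm, where they were 0 once the 3 cells with natural killer markers were left out. Of 10 Fc receptor and adaptor genes 8 were lower, including Fcgr1, Fcgr3 and Fcer1g at -0.95, -0.84 and -0.50, and of 17 macrophage maturation genes 8 were lower, Gpnmb among them at -1.36. Of 23 interferon-stimulated genes 3 were lower (Cmpk2, Cxcl10 and Rsad2).

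On the higher side, Klrd1 was at 263 CPM in Arg1-low and 4.57 CPM in Arg1-positive cells of TBI+PBS and at 280 and 0 CPM in TBI+IL-25. Its log2 ratio was 5.94 ± 0.402 (SE, edgeR adjusted p = 4.85e-32), and it passed in 12 of 12 settings. Ciita was at 95.5 and 2.29 CPM and at 55.9 and 0 CPM (5.28, edgeR adjusted p = 1.05e-15), passing in 11 of 11. Clec10a (57.8 and 3.81 CPM, 69.9 and 4.2 CPM), the activating receptor Klrk1 (99.2 and 9.15 CPM, 65.2 and 4.2 CPM) and the tetraspanin Tspan13 (127 and 9.91 CPM, 154 and 8.4 CPM) were also higher, with log2 ratios of 3.76, 3.34 and 3.63. In class II-low cells of TBI+PBS, 16 of 17 Klrk1 UMIs lay in the 3 cells with natural killer markers. Without the cells of other programs Klrd1 was at 5.91 and Klrk1 at 3.03.

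Cd74 was at 12412 CPM in Arg1-low and 1306 CPM in Arg1-positive cells of TBI+PBS and at 6011 and 756 CPM in TBI+IL-25 (log2 ratio 3.02, edgeR adjusted p = 8.22e-40). In class II-low cells alone the ratio was 0.21 (edgeR adjusted p = 0.72), and for H2-DMb1 it went from 3.52 to 0.96 (edgeR adjusted p = 0.366). Class II-low cells were chosen for low class II message, so this narrowing was set by the choice. The dendritic cell markers Cd7 and Flt3 were higher in Arg1-low cells too, 2 of 4 tested. Of 9 class II pathway genes 5 were higher, and their median went from 1.96 to -0.14 in class II-low cells. Of 12 adhesion genes 5 were higher, such as the integrin Itgal at 1.49, and 1 was lower.

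The classical monocyte genes went both ways, with 3 of 18 higher, such as Gpr141 and Ifitm6, and 7 lower. Thbs1 (1467 and 2867 CPM, 1803 and 3958 CPM) and Fn1 (830 and 2104 CPM, 252 and 2168 CPM) were lower in Arg1-low cells, at log2 ratios of -1.15 and -2.17. In class II-low cells alone Thbs1 was at -0.43 (edgeR adjusted p = 0.264). Other genes of the list of 12 were Ccl24, Cxcl3, Pdpn, Syngr1, Kcnk13, F7 and Rnase4 on the lower side, from -4.12 to -2.19, and Cbfa2t3 (128 and 8.39 CPM, 158 and 0 CPM), Ly6a2, Pglyrp1, H2-DMb2 and S100a8 on the higher side. Of 695 S100a8 UMIs in class II-low cells of TBI+IL-25, 672 lay in the 4 cells with neutrophil markers, and its log2 ratio went from 3.85 to 1.65 without the cells of other programs. Pglyrp1 was at 4.07 without them.

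**Figure D3:**
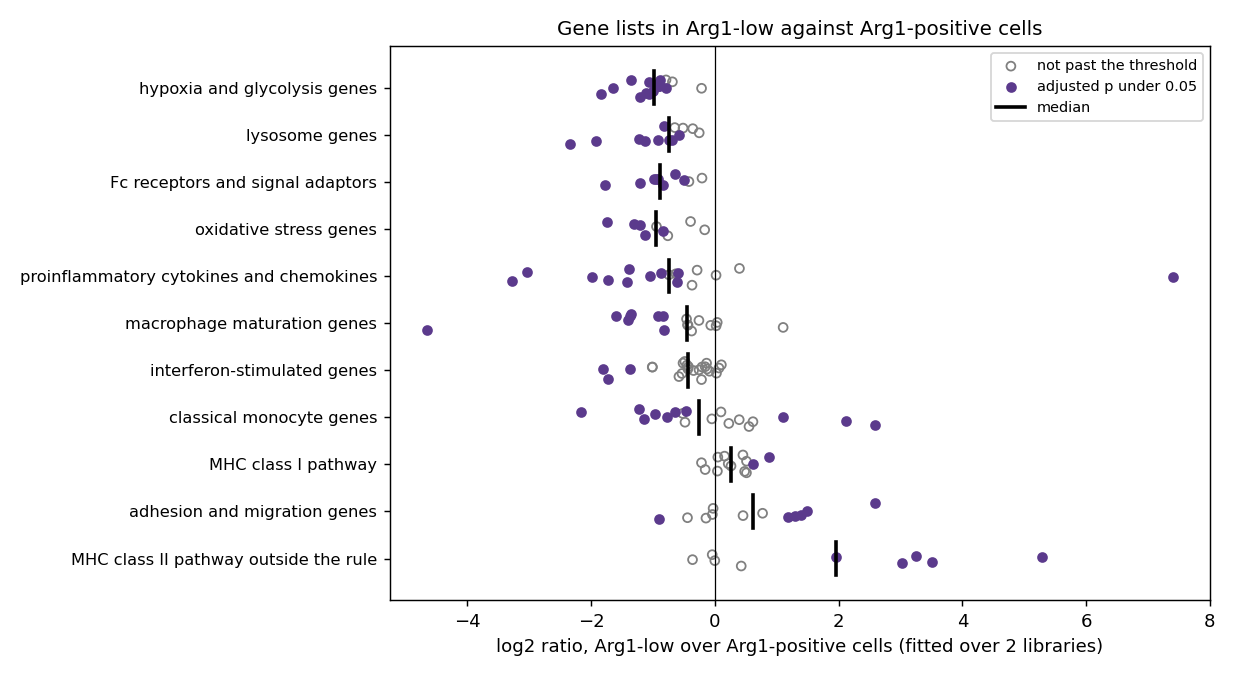
Log2 ratio of Arg1-low over Arg1-positive cells, fitted over TBI+PBS and TBI+IL-25, for the members of 11 gene lists (filled points passed an edgeR adjusted p of 0.05, the bar is the list's median). Hypoxia, lysosome, Fc receptor and oxidative stress genes lie left of 0. The median of the cytokine and chemokine list also lies left of 0, with 3 of 17 genes right of it. The medians of the class II pathway and adhesion lists lie right of 0, with 3 of 9 and 5 of 12 genes left of it. The point far right in the chemokine list is Ccl5.

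The plot of gene lists shows medians from -0.99 for hypoxia and glycolysis genes to 1.96 for the class II pathway, beside -0.06 over all genes. No member of the hypoxia, lysosome, Fc receptor or oxidative stress lists lay above 0. TMM scaling moved the ratios by -0.13 for TBI+PBS and -0.07 for TBI+IL-25 against plain CPM on the log2 scale, which is smaller than those medians.

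Against microglia of the same libraries (3990 cells in TBI+PBS, 4064 in TBI+IL-25), the members differed in many genes outside the rule. Over 14773 genes, edgeR placed 1342 higher in Arg1-low cells (9.08%) and 1697 lower (11.5%), or 20.6% in either direction, with a median of -0.36. All 18 classical monocyte genes were higher, at a median log2 ratio of 7.72, and all 8 microglia markers outside the rule were lower, at a median of -5.14. Both groups of cells were chosen on monocyte and microglia genes, so a difference of this kind was set by the choice, and the values below describe which genes carried it. Markers of some other cell types were higher in the members too. They were 6 of 9 tested conventional dendritic cell markers (1 lower), 4 of 5 neutrophil markers (1 lower) and the natural killer cell marker Nkg7. With microglia as the reference, monocytes and dendritic cells cannot be told apart.

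Napsa, an aspartic protease, had 315 UMIs in 78 members and 0 in 3990 microglia of TBI+PBS, and 93 and 0 in TBI+IL-25, which is at least 3102-fold and 3398-fold higher at 3 counts. In sham it had 24 UMIs in the 7 members and 1 in 4878 microglia. The phospholipase-like Plbd1 was at 382 and 0.255 CPM and at 405 and 0 CPM, and Chil3 at 389 and 0.34 CPM and at 447 and 0.0425 CPM. S100a4 was at 1006 and 2.64 CPM and at 1216 and 5.19 CPM (log2 ratio 8.29, edgeR adjusted p = 3.63e-189), and Lyz2 at 5860 and 216 CPM and at 5168 and 346 CPM (4.41, edgeR adjusted p = 1.61e-83). Gpr141 and Klra2 had 0 UMIs in microglia of both libraries. Krt80, Wfdc21, Clec10a, Gpr171, Mmp8, Ifitm6 and Ly6a2 made up the 12 highest, and Wfdc21 and Mmp8 are neutrophil genes.

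Interferon-stimulated genes stood higher in the members than in microglia, with 21 of 24 higher, 1 lower and a median of 3.35. Isg15 was at 303 CPM in Arg1-low cells and 14.2 CPM in microglia of TBI+PBS and at 382 and 66.3 CPM in TBI+IL-25 (log2 ratio 3.58, edgeR adjusted p = 1.34e-43). Rsad2 (viperin) was at 76.6 and 7.65 CPM and at 83.9 and 13.3 CPM, and Ifit3 at 75.4 and 9.31 CPM and at 69.9 and 28.9 CPM. Cxcl10 was the exception, at 90.4 and 101 CPM in TBI+PBS and at 69.9 and 368 CPM in TBI+IL-25 (-0.97, edgeR adjusted p = 0.00147). Of 16 class I genes 10 were higher, among them H2-K1 (1438 and 616 CPM, 1924 and 743 CPM) and B2m (1269 and 827 CPM, 2316 and 1673 CPM).

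Cytokines were divided between the cell types. Il1b was at 1530 CPM in Arg1-low cells and 86.8 CPM in microglia of TBI+PBS and at 1612 and 134 CPM in TBI+IL-25 (log2 ratio 3.95, edgeR adjusted p = 4.3e-69). Ccl4 was at 804 and 2661 CPM and at 652 and 4284 CPM (-2.12, edgeR adjusted p = 9.65e-23), with Ccl3 at -2.19 and Tnf at -1.40. The complement gene C1qa was at 597 and 10479 CPM and at 983 and 10584 CPM. Lysosome genes were lower in 9 of 13. Of 17 macrophage maturation genes 7 were higher and 10 lower. Csmd3, with 0 UMIs in members of both libraries and 80.3 and 109 CPM in microglia, was at least 21.3-fold and 7.77-fold lower. The other genes of the 12 lowest, such as Mlxipl, Atp8a2 and Plxna4, also had 0 UMIs in the members.

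**Figure D4:**
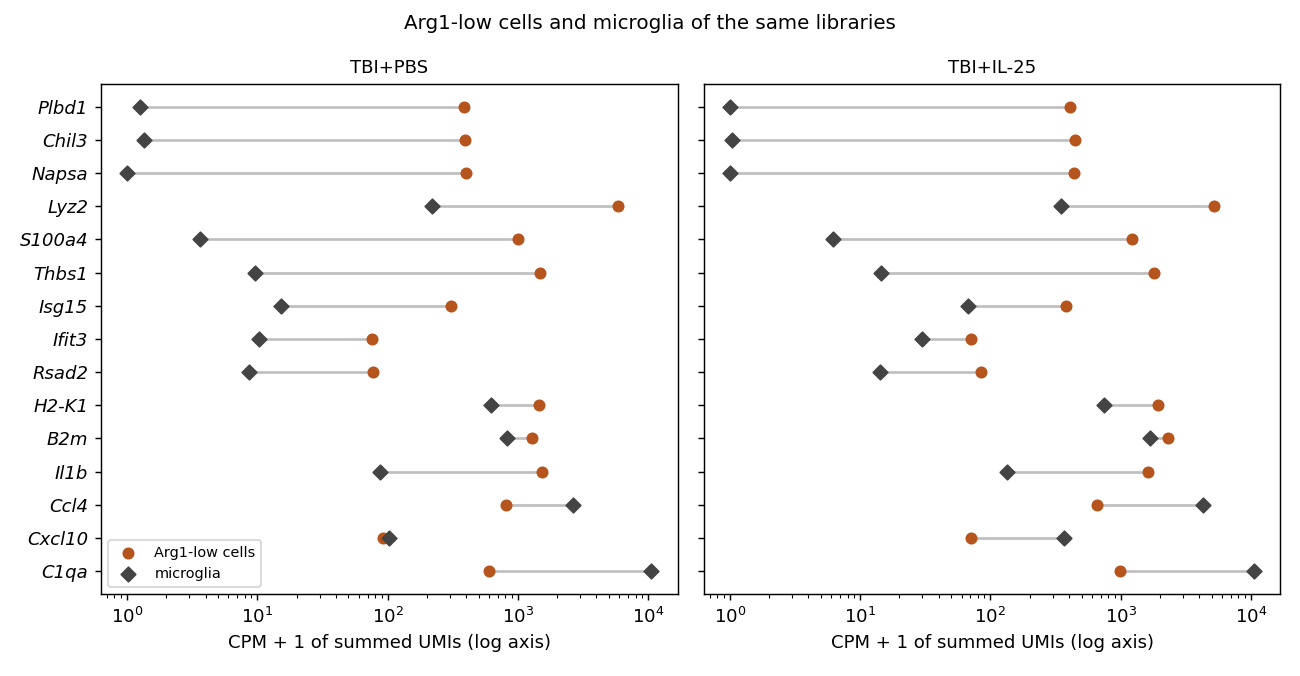
Level of 15 genes in Arg1-low cells (circles) and microglia (diamonds) of TBI+PBS and TBI+IL-25, as CPM of summed UMIs plus 1 on a log axis. Genes from Plbd1 to Il1b are higher in Arg1-low cells, and Ccl4, Cxcl10 and C1qa higher in microglia. Cxcl10 in TBI+PBS has the narrowest gap.

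The plot against microglia shows the same sign in both injured libraries for all 15 genes. Plbd1, Chil3 and Napsa were at or under 0.34 CPM in microglia and between 382 and 447 CPM in the members.

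Between the injured libraries, the members of TBI+IL-25 had lower levels of Hmox1, Ftl1, Emp1, Spp1, Eno1 and Cd74 than those of TBI+PBS, and higher levels of Irf7, Zbp1, Psmb9 and Ifitm6. Each library stands for its whole group here, so no test was possible, and the intervals cover counting error only. Of 6051 genes with at least 20 UMIs, 266 were at least 2-fold higher in TBI+IL-25 (4.4%) and 926 at most 0.5-fold (15.3%). With median-of-ratios size factors they were 395 and 773, and without the cells of other programs and the astrocyte and dendritic marker cells 263 and 590 of 4890. The members of TBI+IL-25 held 214610 UMIs against 796178, and Rn18s-rs5, a ribosomal RNA gene, stood at 7842 CPM in the members of TBI+IL-25 against 443 CPM. It stood at 7876 and 447 CPM over all cells, so this difference was library-wide.

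Hmox1 was at 154 CPM in TBI+IL-25 (18 of 43 cells with a UMI) and 775 CPM in TBI+PBS (43 of 78 cells), a ratio of 0.198 (0.135 to 0.282). It was lower in class II-high members (134 and 482 CPM) and class II-low members (172 and 1180 CPM) alike. In Arg1-positive cells its ratio was 0.276 and in microglia 1.61, so microglia of the same libraries went the other way. Ftl1, ferritin light chain, was at 3248 and 7619 CPM in the members (0.426, 0.394 to 0.461), against ratios of 0.514 in Arg1-positive cells and 0.854 in microglia. Of 9 oxidative stress genes 3 were at most 0.5-fold and 0 at least 2-fold.

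Emp1, an epithelial membrane protein, was at 9.32 CPM in TBI+IL-25 and 234 CPM in TBI+PBS, with UMIs in 2 of 43 and 38 of 78 cells, a ratio of 0.0399 (0.0048 to 0.146). It was low in both class II arms (9.6 and 121 CPM, 9.05 and 389 CPM). Mpp7 (4.66 and 96.7 CPM) and Il7r (4.66 and 112 CPM) each had 1 UMI in TBI+IL-25. Spp1 was at 46.6 and 384 CPM (0.121), and it was also lower in Arg1-positive cells and microglia, at 0.375 and 0.0702.

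Eno1, a glycolytic enzyme, was at 214 CPM in TBI+IL-25 and 681 CPM in TBI+PBS (0.315, 0.228 to 0.426), and Hilpda, a hypoxia-induced lipid droplet protein, at 51.3 and 176 CPM (0.291, 0.142 to 0.538). Of 16 hypoxia and glycolysis genes 4 were at most 0.5-fold, with a median log2 ratio of -0.80 against -0.14 over all genes. Eno1 was also lower in microglia (0.518) and over all cells (0.478), whereas Hilpda was at 1.22 in microglia. Ctsd was at 410 and 1035 CPM (0.396), beside 0.557 in microglia and 0.589 over all cells, and 3 of 13 lysosome genes were at most 0.5-fold. These shares are to be read beside the 15.3% of all genes. Fabp5, Ms4a7 and Gpnmb of the macrophage maturation list were lower in the members as a whole, Gpnmb with 0 against 30 UMIs. In class II-high cells alone Fabp5 was at 144 and 145 CPM and Ms4a7 at 67.2 and 71.4 CPM, so those differences lay in the class II-low cells. Fn1 was at 252 and 830 CPM (0.303), beside 1.03 in Arg1-positive cells and 0.266 in microglia.

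Cd74 was at 6011 CPM in TBI+IL-25 and 12412 CPM in TBI+PBS (0.484, 0.457 to 0.513). In class II-high cells it was 11615 and 20986 CPM, in class II-low cells 724 and 536 CPM, so the direction turned in the class II-low arm. Of 11 class II pathway genes 5 were at most 0.5-fold and 0 at least 2-fold. H2-DMb2 had 5 UMIs against 91.

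Irf7, a regulator of the interferon response, was at 238 CPM in TBI+IL-25 and 95.5 CPM in TBI+PBS (2.49, 1.71 to 3.6), with near-equal values in both class II arms (240 and 95.2 CPM, 235 and 95.9 CPM). The nucleic acid sensor Zbp1 was at 191 and 79.1 CPM (2.41, 1.59 to 3.63). Slfn1 and Oasl1 completed the 4 of 21 interferon-stimulated genes that were at least 2-fold higher, but Slfn1 came to 1.34 and Oasl1 to 0.724 without the 10 cells of other programs, while Irf7 and Zbp1 were at 2.15 and 2.23. The median of the list was 0.24. The immunoproteasome subunit Psmb9 was at 294 and 127 CPM (2.31, 1.66 to 3.2) and the class I gene H2-Q7, whose near copies can share its reads, at 144 and 57.8 CPM (2.5, 1.53 to 4.03), 2 of 13 class I genes. These genes were higher in microglia of TBI+IL-25 too, with ratios of 1.84 for Irf7, 3.37 for Zbp1, 1.48 for Psmb9 and 3.14 for H2-Q7. Ifitm6 (522 and 191 CPM) and Vcan (158 and 71.6 CPM) were the classical monocyte genes that were higher.

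Chemokines went different ways in the class II arms. Ccl7 was at 278 CPM in class II-high cells of TBI+IL-25 and 86.5 CPM in those of TBI+PBS (3.22, 1.92 to 5.32). In TBI+IL-25 its 29 UMIs came from 2 cells, 82.8% of them from 1. In class II-low cells it had 0 UMIs in TBI+IL-25 and 190 in TBI+PBS. Ccl12 was at 451 and 45.4 CPM in class II-high cells (9.93, 5.82 to 17.5), in 7 of 19 and 10 of 41 cells, and at 27.2 and 123 CPM in class II-low cells. Ccl2 was lower in both arms, at 57.6 and 123 CPM and at 226 and 662 CPM. In Arg1-positive cells Ccl7 and Ccl12 were at 0.0812 and 0.261 times the TBI+PBS level, below 1 as in class II-low members, whereas Ccl12 in microglia was at 2.04, where its level was 3845 and 1887 CPM.

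Cks2, a cell-cycle regulator, was at 266 CPM in TBI+IL-25 and 50.2 CPM in TBI+PBS (5.29, 3.47 to 8.13). Ace, angiotensin-converting enzyme, which marks nonclassical monocytes, was at 83.9 and 10 CPM in 9 and 4 cells, and Tppp3 at 135 and 16.3 CPM in 12 and 8 cells. Saa3, an acute-phase protein, was at 214 and 11.3 CPM, with 60.9% of its TBI+IL-25 UMIs in 1 cell. The other leading genes followed few cells. S100a9, S100a8, Retnlg, G0s2, Cstdc4 and Wfdc21 were mostly carried by the 4 cells with neutrophil markers, and S100a8 came to 1.41 without them. Ly6d had 68 UMIs in 1 cell. On the lower side, Ctla2a, Igfbp7 and Cldn5 had 132, 87 and 57 UMIs in TBI+PBS, but 4, 3 and 3 without the cells of other programs. Sparc went from 138 to 66 UMIs without them. Cspg5 and Sox2 are glial genes.

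**Figure D5:**
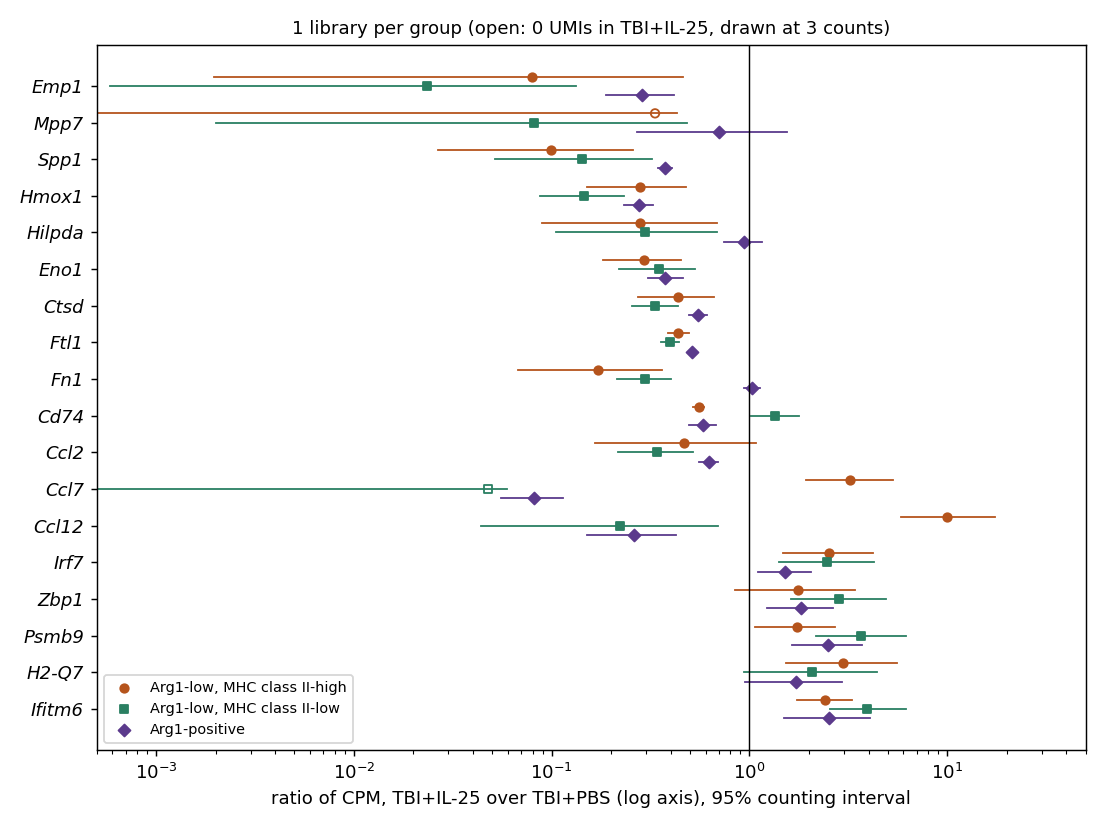
Ratio of CPM, TBI+IL-25 over TBI+PBS, with 95% counting intervals, for 18 genes in class II-high (circles) and class II-low (squares) Arg1-low cells and in Arg1-positive cells (diamonds), on a log axis. Open symbols have 0 UMIs in TBI+IL-25 and stand at 3 counts. Emp1 to Ftl1 lie left of 1, Irf7 to Ifitm6 right of it, and Ccl7 and Ccl12 lie on opposite sides in the class II arms.

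The plot of library ratios shows Hmox1, Eno1, Ctsd and Ftl1 left of 1 in all 3 kinds of cells. Emp1, Hilpda and Fn1 were lower in both arms of the members than in Arg1-positive cells, where Fn1 was at 1.03 and Hilpda at 0.935. The differences between kinds of cells were not tested, having 1 library per group.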

How the data were processed

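Single-cell RNA was measured in 3 libraries, 1 per group. The authors deposited raw UMI counts per gene and barcode for 55357 genes, with no normalization. Per the file headers, Cell Ranger 7.1.0 made the sham and TBI+PBS tables and 7.2.0 the TBI+IL-25 table, and GRCm39, Seurat 4.4.0, bcl2fastq 5.0.1 and Cell Ranger 7.2.0 stand in the submitters' processing notes. How barcodes were selected is not given in the sources used here. Total UMIs were 39536447 for sham, 58148289 for TBI+PBS and 61372408 for TBI+IL-25, over 8939, 10643 and 14222 barcodes. Intervals cover counting error only.

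A cell was kept from 500 UMIs and 300 genes upward when mitochondrial UMIs made up 20% or less. The members, gene lists and marker lists were chosen with earlier results of these data known. Members' UMIs were summed per library and arm and given as CPM. The class II, Arg1 and microglia comparisons were fitted in edgeR 4.0.16 (R 4.3.3) with glmQLFit and glmQLFTest, TMM, filterByExpr, the library as a block and Benjamini-Hochberg adjustment over all genes tested, at 0.05. The printed SE is the log2 ratio divided by the root of the F value. The 17 rule genes stayed in the totals but were not tested. The 2 injured libraries with at least 10 cells per arm entered, which leaves 1 residual degree of freedom. The spread behind a p-value is pooled in part over genes, so it is not a gene's own spread between the libraries. No p-value reaches beyond these 2 libraries. Microglia had at least 10 UMIs of the microglia-rule genes and 0 of the monocyte and lymphocyte ones. On simulated data the test recovered 92%, 96% and 97% of genes changed 4-fold in the class II, Arg1 and microglia comparisons (100, 99 and 100 genes) and 21%, 45% and 43.4% of those changed 2-fold. The simulation gave all genes the same dispersion (0.0366, 0.0171 and 0.032), no library effect and no UMIs clumped in single cells. Only genes with an expected count of 10 or more in the smallest sum were changed. The recovery describes that setting and not the real sums. TBI+IL-25 against TBI+PBS had no test. Shares carry Clopper-Pearson and ratios exact conditional binomial 95% intervals (SciPy 1.17.1), and a count of 0 is set to 3 counts for bounds. Doublet scores came from Scrublet in scanpy 1.11.5.

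In each test the 12 genes with the highest and the 12 with the lowest ratio among those past the threshold, with 50 UMIs or more and 1 direction in both libraries, were named. Between TBI+IL-25 and TBI+PBS the interval bound nearest to 1 ranked them. Members of the lists that passed, or were abundant, were named too. Genes singled out for turning between the class II arms were chosen after their values were seen. Alternatives were DESeq2 1.42.0, other scalings, filters, cell sets and rules. Those without cells holding 5 or more markers, with thinning, without Plac8, in class II arms alone or with the newer dispersion method were chosen after seeing the data. Leaving out 1 of the 2 libraries leaves a ratio with no test. Results for some genes are not reported here.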

Additional observations from a re-analysis of the deposited data

Results flagged for a closer look

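For 14 genes the class II-high over class II-low ratio had opposite directions in the injured libraries, with counting intervals that exclude 1 in both. The difference was not tested, because each ratio comes from 1 library. A bound is given where the class II-low arm had 0 UMIs, at 3 counts. The macrophage genes Mrc1 (0.317 for TBI+PBS and at least 2.83 for TBI+IL-25), C1qa (0.634 and 4.14), C1qb (0.539 and 3.16), Apoe (0.416 and 1.95) and Cd63 (0.703 and 2.2) were lower in class II-high cells of TBI+PBS and higher in those of TBI+IL-25. The chemokines Ccl7 (0.152 and at least 10.2, from 2 cells), Ccl12 (0.37 and 16.6) and Ccl5 (0.671 and 5.3) turned the same way, as did Il1b (0.792 and 1.37) and the ferritin gene Fth1 (0.707 and 1.23). Ccl5 in class II-low cells of TBI+PBS came from the 3 cells with natural killer markers. The early response genes Jun (0.725 and 1.59), Junb (0.883 and 1.28) and Zfp36 (0.714 and 1.46) followed. Rsad2 (2.42 and 0.303) turned in the opposite sense.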

How the results depend on the processing

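No paired analysis was possible because the groups share only replicate number 1. The direction of the class II and Arg1 calls held better than their number. Of the 139 genes called between the class II arms, 103 were still tested without cells holding 2 or more genes of another list, and 102 kept their direction. Of the 531 Arg1 calls, 426 of 433 still tested kept it in class II-low cells and 331 of 345 with both limits. These settings reuse cells of the main fit. With DESeq2 all 139 kept it, but DESeq2 used the same sums, so this was nearly set in advance. Named genes kept direction and side of the threshold, or stayed inside their counting interval, in 1421 gene-setting pairs, missed the threshold in 331, left the interval in 70 and turned in 5. The 2 libraries leave 1 residual degree of freedom, and class II-high cells of TBI+IL-25 hold few UMIs, which limits low genes. The causes of the shifts below were not tested, except where fewer cells or genes entered.

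For higher and lower genes between the class II arms (66 and 73), the counts were 5 and 12 with DESeq2, 9 and 19 with median-of-ratios (RLE) scaling, 39 and 54 without cells of a doublet score over 0.2, 15 and 28 with edgeR's newer dispersion method, 2 and 8 without the library block, 23 and 29 without the 10 cells of other programs, 10 and 14 without astrocyte and dendritic marker cells as well, and 1 and 1 without cells holding 2 or more genes of another list. For Arg1-low against Arg1-positive cells (225 and 306) they were 25 and 35 with DESeq2, 12 and 2 without the library block, 32 and 62 in class II-low cells, 27 and 44 without cells holding 2 or more genes of another list, 80 and 77 without cells of other programs and astrocyte and dendritic marker cells, and 0 and 5 with both limits in edgeR. Genes lower than in microglia (1697) were 535 with DESeq2 and 1000 with the newer dispersion method. Between the injured libraries (266 and 926), a minimum of 50 UMIs gave 102 and 307, and lower genes were 446 without cells holding 2 or more genes of another list, 615 in class II-low cells and 590 without astrocyte and dendritic marker cells.

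The share of members among cells was 0.0224% in sham and 0.387% in TBI+PBS with the microglia-rule genes at 0, 0.468% in TBI+PBS without cells holding 2 or more genes of another list, and for TBI+IL-25 0.184% without Plac8 and 0.445% after thinning. With astrocytes and dendritic cells left out of all cells as well, the shares were 1.16% for TBI+PBS and 0.567% for TBI+IL-25, since fewer cells stand in the denominator. The class II-high share of TBI+PBS was 33.9% among the cells that passed the rule after thinning.

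Values that turned were mostly list medians near 0, on the log2 scale. Between the class II arms, cytokines and chemokines stood at 0.12 with DESeq2 and 0.11 without cells holding 2 or more genes of another list, and interferon-stimulated genes at 0.00 with DESeq2. Against Arg1-positive cells, class II-low cells alone gave -0.14 for the class II pathway and 0.06 for classical monocyte genes, and 0.06 again without other marker cells, where Thbs1 was at 0.03. Cxcl10 was at 0.48 without TBI+PBS replicate 1 and at -2.20 without TBI+IL-25 replicate 1. Between the injured libraries, class II-low cells alone gave 0.43 for Cd74, -2.18 for Ccl12 and 0.25 for the class II pathway, and class II-high cells alone 0.01 for Ccl5, 1.69 for Ccl7, -0.10 for interferon-stimulated genes, 0.40 for macrophage maturation genes and -0.07 for classical monocyte genes. Cytokines and chemokines went from 0.08 to -0.30 with a minimum of 50 UMIs, -0.10 without doublets, -0.68 without cells holding 2 or more genes of another list, -0.78 in class II-low cells, -0.89 without the 10 cells of other programs, -0.90 without astrocyte and dendritic marker cells as well and -0.62 without Plac8.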

Other observations

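Several gene groups showed little change between the class II arms. Of 16 immediate early and dissociation genes, 0 were higher and 2 lower in class II-high cells (median log2 ratio 0.02), and 4 were higher and 1 lower in Arg1-low than in Arg1-positive cells. Receptors for IL-25 and type 2 cytokines were sparse, with 5 of 8 tested in the class II comparison, of which Il2rg was higher. Of 5 tested alternative activation genes in TBI+IL-25 against TBI+PBS, 0 were past 2-fold in either direction (median 0.19). Alternative activation genes other than Arg1 went both ways against Arg1-positive cells, with Clec10a higher and 1 lower among 6. Of 10 nonclassical monocyte genes, 5 were tested against Arg1-positive cells, and Itgax, Pglyrp1 and Spn were higher. Between the libraries, 3 of 5 (Ace, Nr4a1 and Spn) were at least 2-fold higher in TBI+IL-25, beside 4.4% of all 6051 genes. Proliferation genes were mostly too low to compare. Of 12 genes 3 could be set between the libraries, and all of them (Ccnb2, Pclaf and Stmn1) were at least 2-fold higher in TBI+IL-25, beside the same 4.4%. With so few genes and a minimum of 20 UMIs over both libraries, neither count is read as a trait of its list.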
